A study of Homo sapiens with 3 samples.

Results

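Colon cancer cells with tumor-initiating capacity are usually recognized by proteins on their surface. The transcripts followed here are 10 stem cell markers chosen by symbol, not all of which encode surface proteins. They include the surface proteins *CD44*, *PROM1*, *ALCAM*, *EPCAM* and *CD24*. The others are the receptor inhibitor *LRIG1*, the secreted crypt glycoprotein *OLFM4*, the Polycomb subunit *BMI1* and the RNA-binding proteins *MSI1* and *MSI2*. Each was found as 1 row among the 23131 rows of the deposited expression table. HCT-116 is a colon carcinoma line with wild-type APC and a β-catenin that lacks serine 45, so that all groups carry constitutively active canonical WNT signaling. On each of 2 days running, cells received a pool of anti-*APC* siRNA, a pool of scrambled siRNA, or reagent with no siRNA, and RNA was collected 48 hours after the second transfection. The group without siRNA is called untransfected here, after its sample title, although the labels also call it a mock transfection with reagent. The table holds 1 library of anti-*APC* siRNA cells and 1 library of untransfected cells, and the library with scrambled siRNA was not used here. Differences described here therefore have no replicate check, include any effect of siRNA delivery, and cannot separate fewer cells carrying a transcript from less transcript in each cell.

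Canonical WNT signaling maintains the stem cells at the base of intestinal crypts, and APC restrains it by limiting β-catenin. CD44 is a receptor for hyaluronan, a polysaccharide of the extracellular matrix, and is widely used both as a crypt WNT target and as a surface marker for sorting colon cancer stem cells, together with CD133 (the product of *PROM1*), CD166 (the product of *ALCAM*), EpCAM and CD24. Musashi proteins bind messenger RNA and alter its translation, and BMI1 is a subunit of Polycomb repressive complex 1, which silences genes through histone modification.

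Transcription start regions of the markers are shown first, because the study asked where APC meets the factors TCF7L2, AP-1 and SP1 on chromatin. The paper reports most APC-enriched regions at distances from a start well beyond the windows used here. RefSeq windows running from 250 bases before to 50 bases after a start (build GRCh38.p14) were at hand for 8 of the 10 genes, in 18 windows; none was used for *EPCAM* or *MSI1*. Words for 3 factors were searched on both strands. For TCF factors the word was CAAAG preceded by 2 letters that are each A or T. For AP-1 it was TGACTCA or its reverse complement. For SP1 it was the GC box GGGCGG, a shorter word than the SP1 motif counted in the paper. Capitals mark each match, read on the strand of the gene, so a match on the other strand appears as its reverse complement. *CD44* had a single window, *MSI2* is the one marker with a higher level after *APC* silencing, *OLFM4* is the one listed at 0, and *CD24* is the one whose row is listed at a doubtful place.
CD44, chr11:35138921-35139220, plus strand: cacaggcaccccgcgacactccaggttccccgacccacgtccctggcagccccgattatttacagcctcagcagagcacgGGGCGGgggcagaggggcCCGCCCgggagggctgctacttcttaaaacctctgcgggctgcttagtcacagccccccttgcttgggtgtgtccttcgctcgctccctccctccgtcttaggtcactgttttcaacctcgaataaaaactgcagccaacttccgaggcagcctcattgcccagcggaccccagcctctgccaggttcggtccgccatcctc
MSI2, chr17:57255601-57255900, plus strand: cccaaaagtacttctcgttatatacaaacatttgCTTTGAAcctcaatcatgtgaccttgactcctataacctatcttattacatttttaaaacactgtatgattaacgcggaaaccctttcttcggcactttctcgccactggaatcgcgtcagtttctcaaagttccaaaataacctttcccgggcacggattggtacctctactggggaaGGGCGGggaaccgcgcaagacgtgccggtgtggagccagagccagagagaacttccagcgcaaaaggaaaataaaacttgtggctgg
OLFM4, chr13:53028563-53028862, plus strand: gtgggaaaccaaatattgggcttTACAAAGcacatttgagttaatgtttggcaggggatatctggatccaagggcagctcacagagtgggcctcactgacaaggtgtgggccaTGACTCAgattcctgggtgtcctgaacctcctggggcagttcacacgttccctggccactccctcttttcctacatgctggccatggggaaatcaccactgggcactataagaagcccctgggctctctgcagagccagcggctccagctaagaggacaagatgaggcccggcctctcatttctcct
CD24, chr6:106975416-106975715, minus strand: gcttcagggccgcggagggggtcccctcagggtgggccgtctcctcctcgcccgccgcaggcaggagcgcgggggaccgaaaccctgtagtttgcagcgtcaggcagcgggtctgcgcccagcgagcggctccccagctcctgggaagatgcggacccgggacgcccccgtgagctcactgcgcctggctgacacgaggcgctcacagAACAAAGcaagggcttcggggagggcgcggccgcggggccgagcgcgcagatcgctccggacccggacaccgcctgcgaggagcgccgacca
The *CD44* window held 2 GC boxes and neither a TCF nor an AP-1 word. *MSI2* had 1 TCF word and 1 GC box in this window and no match in its other one. *OLFM4* had 1 TCF and 1 AP-1 word, and it was the only one of the 8 genes without a GC box. The *CD24* window shown, 1 of 3, had 1 TCF word and no GC box. Each of its other windows had 1 GC box and no TCF word. For both *MSI2* and *CD24* the window printed is thus the only one of the gene with a TCF word. The printed sequences therefore hold TCF words more often than the 18 windows do. Counting every window of a gene, a TCF word was present in 4 of the 8 genes (*CD24*, *MSI2*, *OLFM4* and *PROM1*), an AP-1 word in 3 (*LRIG1*, *OLFM4* and *PROM1*) and a GC box in 7. Since a gene with several windows has more chances of a match, shares are compared per window. A TCF word was in 4 of the 18 windows (22.2%), an AP-1 word in 3 (16.7%) and a GC box in 12 (66.7%), against 13.8%, 4.95% and 45.0% of all 35116 RefSeq windows. Windows of 1 gene are not independent. These matches describe letters in short windows and say nothing about binding in HCT-116 cells.

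*CD44* had 111 FPKM in untransfected cells and 71.3 FPKM after anti-*APC* siRNA, where FPKM counts fragments relative to transcript length and library size. The library with *APC* silenced thus held 0.640 of the untransfected level, a log2 ratio of -0.64. *CD44* lies on chromosome 11 of GRCh37 from 35160429 to 35253949 on the plus strand, and it was alone at its locus in the table. About 15464 and 9029 reads lay behind the untransfected and anti-*APC* values, estimated from the step that 1 read makes in rows of low FPKM and from a transcript length of 5431 bases. Counting error alone placed the log2 ratio between -0.68 and -0.61 at 95% confidence. Such intervals leave out variation between cultures, which 1 library per group cannot show. In rank among all rows *CD44* moved from 898 to 1474. The table sums all isoforms of a gene, so standard CD44 and the variant-exon forms could not be told apart.

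*CD24*, a small glycosylphosphatidylinositol-anchored glycoprotein, had 3.83 FPKM in untransfected cells and 2.45 FPKM with anti-*APC* siRNA. Its log2 ratio of -0.65 was close to that of *CD44*, and *CD44* was 29.1 times as abundant as *CD24* in both libraries. The placement of the *CD24* row limits what it measures. The table lists the row on chromosome Y at a locus shared with *TTTY14*, and there the GENCODE annotation of GRCh37 has the processed pseudogene *CD24P4* (21154353 to 21154595, minus strand). RefSeq places *CD24* on chromosome 6 of GRCh38. None of the 3 *CD24* start windows had an exact match on the GRCh37 chromosomes, whereas each of the 15 windows of the other 7 genes matched at 1 place. Whether reads of the chromosome 6 gene make up the listed level was not tested. No counting interval was computed for *CD24*, since no transcript length was assigned to it.

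**Figure D1:**
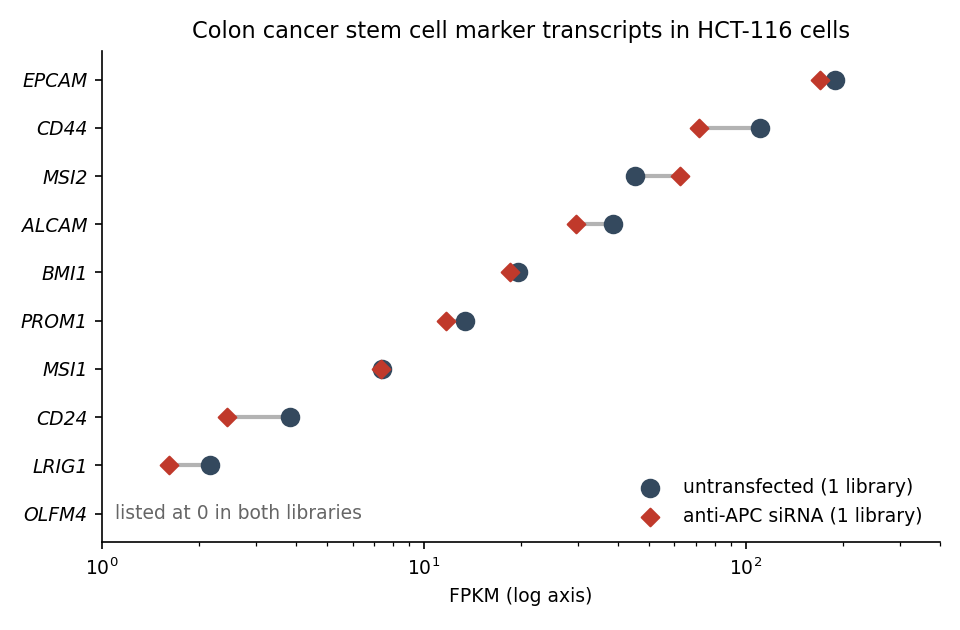
FPKM of the 10 marker transcripts (log axis) in the untransfected library (circles) and the anti-*APC* siRNA library (diamonds), 1 library each, with a grey line joining both values of a gene. *CD44* shifts from 111 to 71.3 FPKM and *CD24* from 3.83 to 2.45 FPKM, *MSI2* shifts the other way, and *OLFM4* is listed at 0.

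*ALCAM*, an adhesion molecule of the immunoglobulin superfamily that binds CD6 and itself, had 38.7 FPKM in untransfected cells and 29.6 FPKM after anti-*APC* siRNA. The log2 ratio was -0.39, with a counting interval of -0.45 to -0.32. *PROM1*, a pentaspan membrane glycoprotein of plasma membrane protrusions, had 13.4 FPKM in untransfected and 11.7 FPKM in silenced cells, a log2 ratio of -0.19 (counting interval -0.31 to -0.07). *EPCAM*, an epithelial adhesion molecule, was the most abundant marker in both libraries. It had 189.5 FPKM in untransfected cells and 170.3 FPKM once *APC* was silenced, a log2 ratio of -0.15 (counting interval -0.20 to -0.11). All 5 surface markers were therefore lower in the anti-*APC* library, which held from 0.639 (*CD24*) to 0.898 (*EPCAM*) of the untransfected level. Of all rows with at least 1 FPKM in the higher library and above 0 in both, 58.7% were also lower. *PROM1* and *EPCAM* lay between the quartiles of those rows, at log2 ratios of -0.25 and 0.11. The microRNA gene *MIR559*, 96 bases long and inside *EPCAM* on the same strand, was listed at 36.6 FPKM in untransfected cells and at 0 with anti-*APC* siRNA, and how reads were divided between them was not tested. *ALCAM* and *PROM1* were alone at their loci in the table. On GRCh37, *ALCAM* lies on chromosome 3 from 105085753 to 105295744, *PROM1* on chromosome 4 from 15964699 to 16086001 and *EPCAM* on chromosome 2 from 47572297 to 47614740.

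*LRIG1*, a transmembrane protein that restrains ERBB receptors and marks intestinal stem cells, had 2.17 FPKM in untransfected cells and 1.61 FPKM after anti-*APC* siRNA. Its log2 ratio of -0.43 rested on about 297 and 202 reads, so the counting interval was wide, from -0.69 to -0.16. *LRIG1* (chromosome 3, 66429221 to 66551687, minus strand) overlaps *SLC25A26* on the opposite strand, and Cuffdiff placed both at 1 locus. *SLC25A26* had 9.76 FPKM in untransfected and 10.1 FPKM in silenced cells, and the use of strand in read assignment is not given in the sources used here. *OLFM4* (chromosome 13, 53602948 to 53626192), a marker of crypt base columnar cells, was listed at 0 in both libraries. Cuffdiff marked it as not tested and not as failed. Because 269 other rows were marked as failed and also stand at 0, a listed 0 is given here only as listed.

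The intracellular markers differed less, with 1 exception. *BMI1* had 19.6 FPKM in untransfected cells and 18.5 FPKM with anti-*APC* siRNA, a log2 ratio of -0.08 whose counting interval of -0.18 to 0.02 included 0. *BMI1* (chromosome 10, 22610028 to 22620413) shares its locus with *COMMD3* and with the read-through transcript *COMMD3-BMI1*, which was listed at a higher level than *BMI1* itself, 48.7 FPKM in untransfected and 43.3 FPKM in silenced cells. Summed with the read-through row, *BMI1* had 68.2 and 61.7 FPKM, a log2 ratio of -0.14. *MSI1* had 7.43 FPKM in untransfected and 7.35 FPKM in silenced cells. Its log2 ratio of -0.02 had a counting interval of -0.19 to 0.16, so a change within that range was not detectable at this depth. *MSI2* was the 1 marker with a higher level, at 45.3 FPKM in untransfected cells and 62.3 FPKM after anti-*APC* siRNA. This was a 1.37-fold difference, a log2 ratio of 0.46 (counting interval 0.41 to 0.50). The Musashi paralogs thus moved apart, and *MSI2* went from 6.09 to 8.47 times the level of *MSI1*. *MSI1* lies on chromosome 12 from 120779133 to 120806967 and *MSI2* on chromosome 17 from 55333212 to 55762050, and each was alone at its locus in the table.

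The order of levels was the same in both libraries. From the highest to the lowest it was *EPCAM*, *CD44*, *MSI2*, *ALCAM*, *BMI1*, *PROM1*, *MSI1*, *CD24* and *LRIG1*. The distance between neighbours changed most for *CD44* and *MSI2*. *CD44* had 2.46 times the FPKM of *MSI2* in untransfected cells and 1.14 times after anti-*APC* siRNA. In untransfected cells the closest neighbours were *MSI2* and *ALCAM*, which differed 1.17-fold. Counting intervals of neighbours did not overlap in either library where they were computed, but the spread between cultures is unknown and pairs as close as these are not shown to differ. *EPCAM* was 1.70 times as abundant as *CD44* without and 2.39 times with anti-*APC* siRNA.

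Of the 9 markers above 0, 8 were lower and 1 was higher after anti-*APC* siRNA, with a median log2 ratio of -0.19. Over all 12256 rows with at least 1 FPKM in the higher library and above 0 in both, 58.7% were lower and the median log2 ratio was -0.05. A difference of at least 1.5-fold, the size used here to call a row, was seen in 2 of the 9 markers, *CD44* and *CD24*, both lower. Among all rows 9.87% were called, 7.07% as lower and 2.81% as higher. The share called as lower varied with expression level, from 11.5% of rows with a mean of 1 to 10 FPKM, where *CD24* lies, to 2.90% of rows with 10 to 100 FPKM, where *CD44* lies. In the latter range 1.51% of rows were at least 1.5-fold higher. *MSI2* lay below that size, with 96.0% of all rows at a lower ratio, and 5.70% of rows had a lower ratio than *CD44*. These markers were chosen with earlier results of the same libraries known, so their counts are a description. Both calls were narrow, at 1.56-fold, and with 1 FPKM added to every value the log2 ratio of *CD24* was -0.49, short of 1.5-fold.

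**Figure D2:**
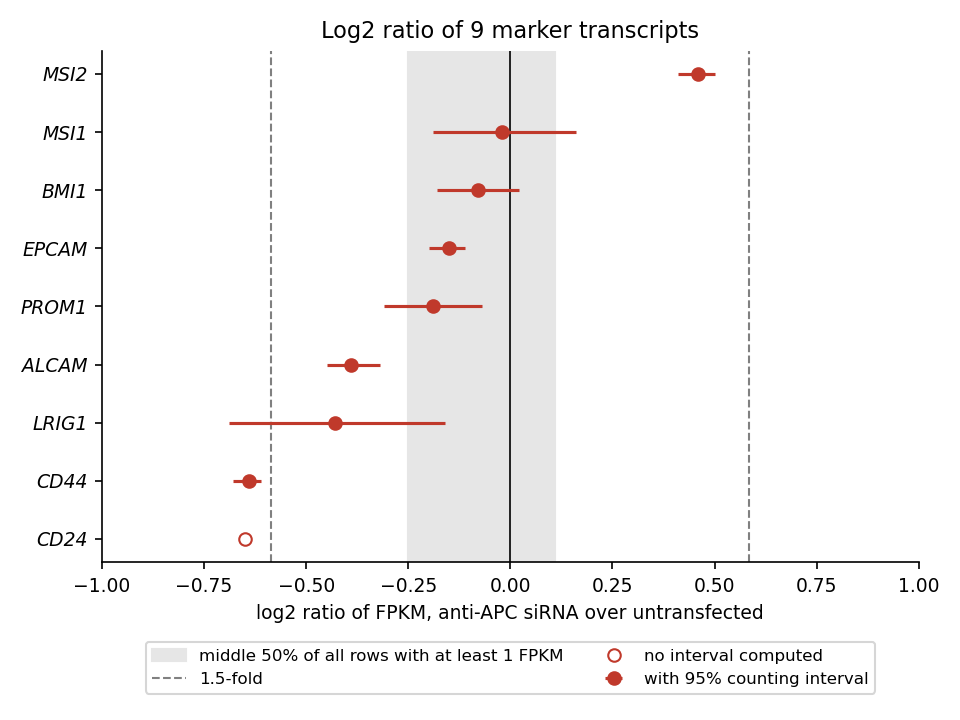
Log2 ratio of FPKM (anti-*APC* siRNA over untransfected) of the 9 markers above 0, with 95% counting intervals where computed, which cover counting error only. The grey band runs from the lower to the upper quartile of all rows with at least 1 FPKM (-0.25 to 0.11) and dashed lines mark 1.5-fold: *CD44* at -0.64 and *CD24* at -0.65 lie beyond the lower line, and *MSI2* at 0.46 is the only marker right of the band.

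**Figure D3:**
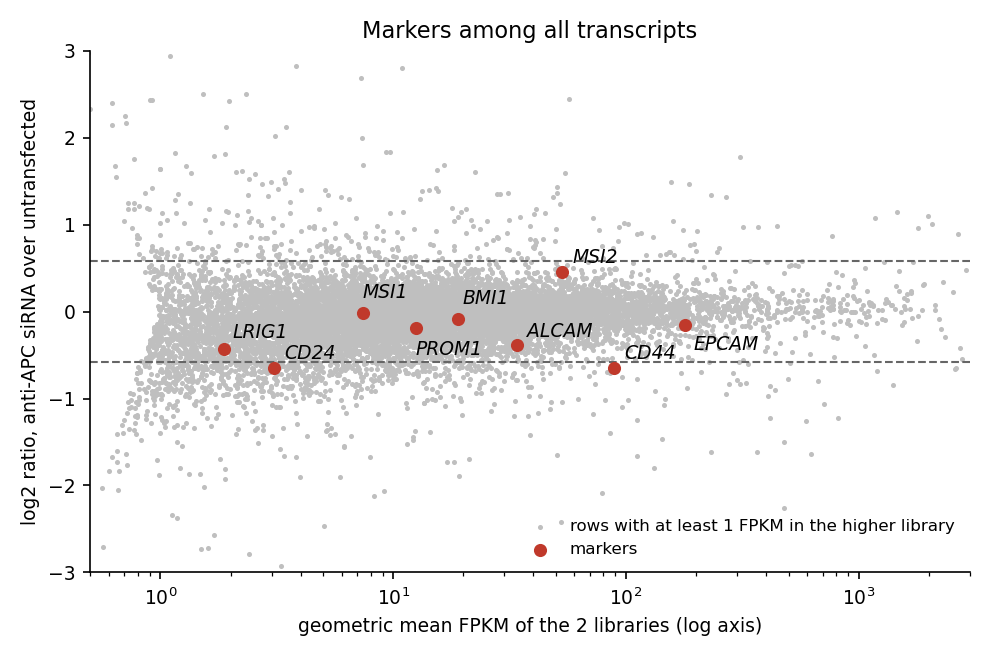
Log2 ratio of FPKM (anti-*APC* siRNA over untransfected) against the geometric mean FPKM of the 2 libraries (log axis), with 1 grey point for each of the 12256 rows, except 33 beyond the axes, and the 9 markers in red. Dashed lines mark 1.5-fold; *CD44* lies below the main cloud at its level, whereas *CD24* and *LRIG1* lie where the cloud is wide.

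The check of silencing was *APC* itself, which had 9.15 FPKM in untransfected cells and 3.43 FPKM in the silenced cells. *AXIN2*, a direct WNT target, had 4.11 and 28.7 FPKM, and *CTNNB1*, which encodes β-catenin, had 177 and 178 FPKM. All 8 epithelial markers examined (*KRT8*, *KRT18*, *KRT19*, *CDH1*, *CLDN3*, *CLDN4*, *CLDN7* and *ELF3*) were above 1 FPKM in both libraries, so the epithelial origin in the label was met, and all were lower in the anti-*APC* library, 4 of them by at least 1.5-fold. Their median log2 ratio was -0.56. Over all rows the median was -0.05, with 58.7% lower and 7.07% at least 1.5-fold lower. *ELF3*, an epithelial ETS factor, had 23.3 FPKM in untransfected and 8.90 FPKM in silenced cells, and *CDH1*, which encodes E-cadherin, had 19.0 and 12.1 FPKM. *CLDN4* (44.4 and 25.8 FPKM) and *CLDN3* (2.40 and 1.31 FPKM), both tight junction proteins, were the other 2. These markers moved in the same direction as *CD44*, *CD24* and *EPCAM*, and their part in the marker result was not tested. Defining markers of other cell types were mostly near 0. All 8 endothelial markers, 7 of 8 fibroblast and 7 of 8 immune markers were under 1 FPKM in both libraries. The fibroblast exception was *COL1A1*, at no more than 3.08 FPKM. The immune exception was the lysosomal *CD68*, at 8.91 FPKM in untransfected and 5.01 FPKM in silenced cells, while *PTPRC*, which encodes the pan-leukocyte protein CD45, was at or below 0.0148 FPKM.

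Genes that make, degrade or read the CD44 ligand hyaluronan were examined next, in 1 list with other partners of CD44. Of 17 listed genes, 9 passed the filter, 2 were at least 1.5-fold lower and 1 was higher, beside 9.87% of all rows called either way, and the median log2 ratio was -0.24. *MSN*, which encodes moesin and links CD44 to actin, had 93.9 FPKM in untransfected cells and 61.8 FPKM with anti-*APC* siRNA. Its relatives *EZR* (859 and 699 FPKM, log2 ratio -0.30) and *RDX* (64.4 and 72.7 FPKM, log2 ratio 0.17) differed by less than 1.5-fold. The hyaluronidase gene *HYAL1* had 2.12 and 1.12 FPKM, and *HYAL3* had 3.02 and 4.82 FPKM. The calls rested on the settings: 1 gene was lower under median centring and under the upper quartile, and with 1 FPKM added 1 was lower and 0 were higher. Of 11 expressed genes that act in CD44 splicing or shedding, none reached 1.5-fold, and their log2 ratios ran from -0.29 for the epithelial splicing regulator *ESRP1* to 0.18 for the sheddase *ADAM10*. The rows closest to *CD44* in both libraries were *ARPC1B* (111 and 70.9 FPKM, a distance of 0.0067 on the log2 scale), *MIR877* (0.091) and *MCM6* (0.096). With 2 libraries this likeness means no more than a similar level and ratio.

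Genes that work with the other markers were counted against the same share of 9.87% of all rows, which in lists this small leaves 0 or 1 called gene near the background. Among 8 expressed genes listed with *EPCAM*, none reached 1.5-fold and 6 were lower. *CLDN7*, a claudin that binds EpCAM, had 70.2 FPKM in untransfected and 51.0 FPKM in silenced cells (log2 ratio -0.46). Of the 16 other subunits of Polycomb repressive complex 1, all were expressed and none reached 1.5-fold, with log2 ratios from -0.36 to 0.38 around a median of -0.10, near the -0.08 of *BMI1*. None of the 6 expressed genes among *LRIG* paralogs and the receptors LRIG1 acts on reached 1.5-fold either. *EGFR* had 21.7 and 22.6 FPKM, and *ERBB2* had 18.2 and 14.4 FPKM. Of 5 expressed transcripts described as Musashi targets, 1 was at least 1.5-fold lower, and this was *APC*, the siRNA target itself. *NUMB*, an inhibitor of Notch signaling, had 17.8 FPKM in untransfected and 12.2 FPKM in silenced cells (log2 ratio -0.54).

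Of 13 further colon cancer stem cell markers, 7 passed the filter, of which 6 had a lower and 1 a higher level after anti-*APC* siRNA, with a median log2 ratio of -0.33. At least 1.5-fold lower was 1 of them, *ALDH1A3*, an aldehyde dehydrogenase that makes retinoic acid, with 108 FPKM in untransfected cells and 47.8 FPKM after anti-*APC* siRNA (log2 ratio -1.18). Over all rows 9.87% were called either way, so as a count 1 call among 7 genes is near the background. The size of the *ALDH1A3* difference was less common. Of rows with a mean of 10 to 100 FPKM, where *ALDH1A3* lies, 2.90% were at least 1.5-fold lower. Over all 12256 rows, 202 were at least 2-fold lower. The integrins *ITGB1* (224 and 206 FPKM) and *ITGA6* (48.8 and 51.3 FPKM) differed by less than 1.5-fold. Among 15 crypt stem cell genes, 9 passed the filter, of which 3 were at least 1.5-fold higher (*AXIN2*, *ZNRF3* and *CDK6*) and 3 lower (*EPHB2*, *EPHB3* and *TERT*). The shares over all rows were 2.81% higher and 7.07% lower. *EPHB3* and *TERT* passed the filter only through their untransfected level, and with at least 1 FPKM required in both libraries 3 genes were higher and 1 was lower. The WNT receptor ligase *ZNRF3* had 3.89 FPKM in untransfected and 6.84 FPKM in silenced cells, and the crypt sorting receptor *EPHB2* had 4.10 and 1.59 FPKM. The telomerase gene *TERT* had 1.67 and 0.878 FPKM. *LGR5*, the crypt base receptor for R-spondins, was listed at 0.0271 FPKM without and at 0 with anti-*APC* siRNA, and *ASCL2*, *SMOC2* and *HOPX* were listed at 0 in both, as was *OLFM4*. *CD44*, *EPCAM*, *ALCAM* and *PROM1* were thus present at 10 FPKM or more in a line whose listed values for these crypt genes were at or near 0. Other genes of the crypt list were expressed, among them *CDCA7* (55.2 FPKM in untransfected and 51.3 FPKM in silenced cells), *SOX9* (30.4 and 44.5 FPKM) and *RGMB* (5.24 and 5.51 FPKM).

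**Figure D4:**
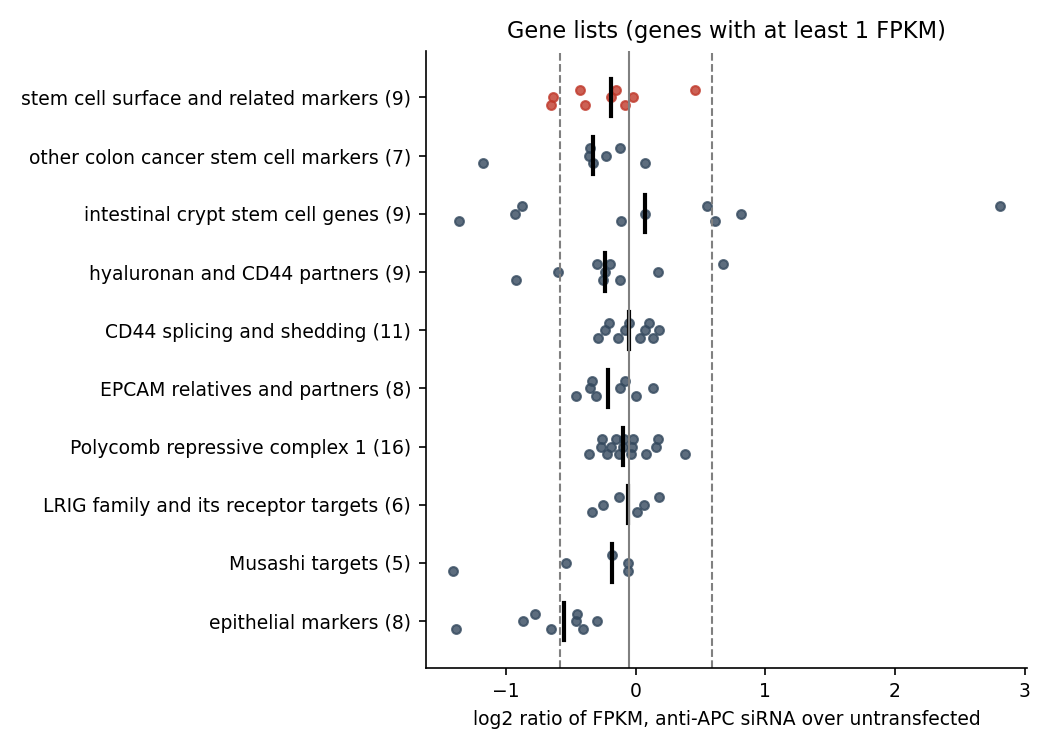
Log2 ratio of FPKM (anti-*APC* siRNA over untransfected) of each gene with at least 1 FPKM in the higher library, by gene list, with the number of genes in brackets, for lists of 5 genes or more. Black bars are list medians, the grey line is the median of all rows (-0.05) and dashed lines mark 1.5-fold; the markers in red have a median of -0.19, epithelial markers lie at -0.30 or below, and crypt stem cell genes spread from -1.36 to 2.81.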

How the data were processed

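RNA from HCT-116 cells was sequenced as single-read TruSeq libraries, 1 for each of 3 groups. The authors assigned reads with Cufflinks and compared libraries with Cuffdiff on hg19 (submitters' processing notes). Versions, aligner and annotation are not given in the sources used here. The authors deposited FPKM per gene for anti-*APC* siRNA and untransfected cells. Their fold change, test statistic, *p* and *q* columns were not used. Samples were grouped by title.

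Log2 ratios were computed without a pseudocount. With 1 library in each group no test was run. A row was called at 1.5-fold or more with at least 1 FPKM in the higher library and above 0 in both. Among 2335 rows under 0.2 FPKM in untransfected cells, 378 shared 1 ratio within 0.01 on the log2 scale (0.13 higher with anti-*APC* siRNA), the ratio that 1 read gives when present in each library, and 156 and 136 lay at 1 to 2 and 2 to 1 reads. With GENCODE 44 transcript lengths on GRCh37, this put depth near 25600000 reads (untransfected) and 23300000 (anti-*APC*). Exact binomial intervals of the ratio use reads estimated this way and cover counting error only. Genes named are the 10 markers, *APC*, *AXIN2* and *CTNNB1*, rows at a marker's locus, the 3 rows nearest *CD44*, and up to 4 genes past 1.5-fold from each of 14 lists. Others (*PTPRC*, *EZR*, *RDX*, *ESRP1*, *ADAM10*, *CLDN7*, *NUMB*, *EGFR*, *ERBB2*, *ITGB1*, *ITGA6*, *ZNRF3*, *CDK6*, *CDCA7*, *SOX9*, *RGMB*, *LGR5*, *COL1A1*, *MYC*, *KLF4*, *CDX2*, *DCLK1*, *CXCR4*, the other epithelial markers, and genes at 0 or under 1 FPKM) were named after their values were seen. Members and lists were chosen with earlier results of these data known. The calls and the depth estimate were tested on simulated data. The simulation held counting error only and the same transcript lengths, so it does not show how well they hold for these libraries. Python 3.11.15, numpy 2.4.6, pandas 2.3.3, scipy 1.17.1 and matplotlib 3.10.9 were used.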

Additional observations from a re-analysis of the deposited data

How the results depend on the processing

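With 1 library in each group no replicate could be left out, and the comparison with scrambled siRNA was not run. No paired analysis was possible because each group has 1 library. *CD44* kept its direction and its 1.5-fold call under median centring (log2 ratio -0.59), a rescaling to equal sums (-0.71), the upper quartile and the pseudocounts. The other markers kept their direction under these settings except *MSI1*, whose log2 ratio ran from -0.08 to 0.04. At 2-fold, 0 markers were called, and 5 list genes were lower and 1 higher, against 13 and 4 at 1.5-fold. Over all rows 202 were lower and 137 higher at 2-fold, against 866 and 344 at 1.5-fold. With 1 FPKM added, 1 marker (*CD44*) and 462 rows were called lower. Without a filter on low values 21 list genes and 2078 rows were lower, and 16 list genes and 1084 rows were higher. With rows alone at their locus, 1 marker (*CD44*) was lower and 196 rows were higher. A stricter fold, an added value or a subset of rows can only lower a count, and rows let in can only raise it. Rows alone at their locus were 9283 of the 12256 filtered rows, with 598 lower and 196 higher, against 866 and 344 in all. Whether sharing a locus affects the calls was not tested. Of 252 counts for single lists under other settings, 224 lay within 1.5 times the main count. Most of these 224 were counts of 0 that stayed at 0, so they say little about how stable the calls in a list were. Restriction to rows of Cuffdiff status OK and the sum of *BMI1* with its read-through row were chosen after seeing the data. Among markers with a counting interval, depth limits *LRIG1*, *MSI1* and *PROM1* most. For *CD24*, at 3.83 and 2.45 FPKM, no interval was computed, so its limit by depth is not known.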

Other observations

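Among pluripotency factors, *MYC* (178 FPKM in untransfected and 185 FPKM in silenced cells) and *KLF4* (17.8 and 16.1 FPKM) were expressed and differed by less than 1.5-fold. The other 5 of 7 (*POU5F1*, *SOX2*, *NANOG*, *LIN28A* and *LIN28B*) were under 1 FPKM in both libraries. Among 15 colon differentiation markers 13 were under 1 FPKM in both libraries, including the goblet cell mucin *MUC2* and the enterocyte gene *FABP1*. The 2 others were *CDX2*, an intestinal homeobox factor (7.33 and 6.77 FPKM), and *CA2*, a carbonic anhydrase of surface colonocytes, which had 30.0 FPKM in untransfected cells and 13.1 FPKM after anti-*APC* siRNA (log2 ratio -1.19).

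Below the filter, *DCLK1*, a tuft cell and tumor stem cell kinase, was listed at 0.134 FPKM in untransfected cells and at 0.956 FPKM once *APC* was silenced, a log2 ratio of 2.83. *CXCR4*, a chemokine receptor also used as a colon cancer stem cell marker, was listed at 0.299 and 0.878 FPKM, a log2 ratio of 1.55. Both were higher where *CD44* and *ALDH1A3* were lower. They were noticed after their values were seen, rest on 1 library each, and carry no test.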
